A study of Mus musculus with 22 samples.

Results

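Enteroendocrine cells are the hormone-secreting cells of the gut epithelium, and their formation is driven by a small network of transcription factors. 9 of these were followed here across sorted cells of the mouse colon crypt: Neurog3, Neurod1, Insm1, Nkx2-2, Pax4, Pax6, Isl1, Fev and Rfx6, which are 9 of the 24421 genes in the count files. The genes were chosen by name, for what is known of them in enteroendocrine cells, with earlier results of these data known. 7 of the 9 (Neurod1, Insm1, Nkx2-2, Pax4, Pax6, Fev and Rfx6) were higher in sorted enteroendocrine cells than in each of the 5 other cell types, where 3.44 to 11.2% of all genes were. In an edgeR fit with trended dispersions the count fell to 4 against tuft cells and 2 against enterocytes, and without the second enteroendocrine library (EEC 2) it was 4 against enterocytes. Neurog3 had another pattern, with its highest mean in the secretory progenitor gate but a range there that overlapped with tuft cells, and Isl1, which was hardly read in stem cells, had overlapping levels in enteroendocrine cells and enterocytes.

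RNA was sequenced from 22 libraries of crypt epithelium taken from untreated wild-type male C57BL/6N mice of 5 to 7 weeks and sorted by surface markers. All gates held live cells positive for Epcam and negative for Cd31 and Cd45, the markers of endothelium and blood. Stem cells (Stem, 3 libraries) had the most Cd44, little Cd24 and no Ckit, and absorptive progenitors (AbsPro, 3 libraries) had medium to high Cd44 with the same Cd24 and Ckit gates. The SecPDG gate (4 libraries), which holds secretory progenitors and deep crypt secretory cells and perhaps some goblet cells, had high Cd44 with medium Cd24 and Ckit by the labels, whereas the study's text gives it medium Cd44 and finds Ckit protein in tuft cells alone. Tuft cells (Tuft, 5 libraries) were Ckit positive with high Cd24. Enterocytes (Enterocyte, 5 libraries) and enteroendocrine cells (EEC, 2 libraries) both had little or no Cd44, without Cd24 in the former and with Cd24 in the latter. Libraries of a cell type came from separate mice, and those of all types but Stem and AbsPro pooled the cells of several mice. Every gate was set by surface markers and is to be read as a mixture and not as a single cell state.

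Neurog3 is switched on briefly in secretory progenitors and commits them to the enteroendocrine fate. It then gives way to factors that it activates, among them Neurod1, Insm1, Pax4 and Nkx2-2, which stay on while the cell matures and chooses its hormone. In the colon many of the mature cells are enterochromaffin cells, which make serotonin, and others secrete peptide hormones.

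The libraries held between 4122122 and 22462518 reads on genes, and EEC had both the lowest and a middling library (4122122 in EEC 1 and 13132315 in EEC 2). Reads also fell on 1544 genes of the olfactory, vomeronasal and taste receptor and hair keratin-associated families, taken here as a background set. Some of these may be transcribed, since the study reports taste signaling in its tuft cells. Olfr78, of the olfactory family, had 468 and 971 normalized counts in EEC 1 and EEC 2 and a mean of 0 in Stem. The background rate in EEC and Tuft may thus be set too high. The 1544 genes took 12.2 to 158 CPM (reads scaled to a common library total) in Stem, AbsPro and SecPDG, 183 to 1495 in Tuft, 784 to 3966 in Enterocyte, 7182 in EEC 1 and 635 in EEC 2. The share of aligned reads on no gene was 89.7% in EEC 1 against 40.9 to 83.1% in the libraries of the other 5 types. The reads expected on each factor at the same rate per kilobase are given below as its background share, and their part in any difference between cell types was not tested. The files of SecPDG and Tuft follow another naming pattern than the rest, and that difference and the cell type cannot be told apart.

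The EEC gate was checked against 6 enterochromaffin markers (Tph1, Chga, Chgb, Slc18a1, Tac1 and Ddc). Their summed level was 80008 CPM in EEC 1 and 107657 in EEC 2, 758 to 3141 in Enterocyte and 40.6 to 65.3 in Stem, and all 6 were called higher in EEC than in Stem, by the rule given with the counts of calls. Of 9 peptide hormone genes only Sst and Sct were called. Gcg, the glucagon-like peptide precursor, had 0 and 2.43 normalized counts in EEC 1 and EEC 2 and a mean of 2676 in Enterocyte. The gate thus carried the markers of enterochromaffin cells, with Gcg at or near 0. All 6 stem cell markers were lower in EEC than in Stem, and 5 of 8 enterocyte markers were higher, with sums of 3067 and 9973 CPM in EEC 1 and EEC 2 and 4752 to 8091 in Enterocyte. Tuft markers summed to 508 and 516 CPM in EEC 1 and EEC 2 and 2036 to 5310 in Tuft, with 6 of 7 called and Gng13 at 0 in both EEC libraries. Goblet markers (1 of 8 called) summed to 4927 and 3878 CPM in EEC 1 and EEC 2 and 46527 to 138437 in SecPDG. Several of the 9 factors are also used in enteric neurons. Markers of enteric neurons and glia summed to 311 and 259 CPM in EEC 1 and EEC 2 and 3.57 to 7.72 in Stem, with 1 of 10 called (Ret) and Sox10 at 157 and 0 normalized counts. Endothelial markers (4 of 4 called) summed to 249 and 81.8 CPM in EEC 1 and EEC 2 and 5.16 to 10.8 in Stem. Immune markers (3 of 12 called) summed to 435 and 36.7 CPM, with Cd79a at 0 in both libraries, and to 13.1 to 14.9 in Stem. Stromal markers (3 of 8 called) summed to 353 and 27.1 CPM in EEC 1 and EEC 2 and 10.1 to 25.1 in Stem. Of all genes 10.8% were called higher and 9.14% lower in EEC than in Stem. A call needs a mean of 50 normalized counts over all libraries. This was reached by 1 of 10 neuron and glia, 5 of 12 immune, 5 of 8 stromal and 5 of 9 peptide hormone genes. Few calls in these lists therefore do not mean few such cells, and the median log2 difference of the neuron and glia list was 5.85. The part of cells of other types in the levels of the 9 factors was not tested, and in bulk libraries fewer cells of a type and less RNA per cell cannot be told apart.

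The 9 genes lie on 5 chromosomes of the mouse GRCm38 build. Neurog3 is at chr10:62133090-62134763 on the plus strand, with 2 exons and 1540 exonic bases, and Rfx6 on the same chromosome at chr10:51677756-51730432, with 20 exon blocks. Chromosome 2 holds 4 of them: Neurod1 at chr2:79452521-79456751, Pax6 at chr2:105668900-105697364, Insm1 at chr2:146221921-146225020, a gene of 1 exon, and Nkx2-2 at chr2:147177546-147194243. Pax4 is at chr6:28442334-28449353, Isl1 at chr13:116298281-116309689 and Fev at chr1:74881509-74885419. Since reads were counted without strand, overlapping genes matter: Neurod1 shares 201 exonic bases with Cerkl on the same strand and Nkx2-2 shares 278 with the antisense transcript Nkx2-2os. Cerkl had a mean of 10.3 normalized counts in Stem and 528 in EEC, and Nkx2-2os had 1.12 in Stem, 58.3 in Tuft, 75.6 in Enterocyte and 126 in EEC, so a share of the reads at these ends could not be assigned. Neurog3 shares 273 exonic bases with the coding gene Fam241b on the other strand, and Neurod1 shares 154 with the noncoding Gm26755. Neither neighbour is among the counted genes under that name. Whether their reads were counted on Neurog3 or Neurod1 was not tested.

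The 250 bases before a RefSeq start of the gene are shown for 4 of the factors, because the basic helix-loop-helix proteins Neurog3 and Neurod1 bind the E-box, written CANNTG, and because Neurog3 differed in pattern from the other 3. The sequences are RefSeq's for GRCm38.p6, read 5′ to 3′ on the strand of the gene, with E-boxes in capitals. These starts are not always the outer ends of the GENCODE genes given above: the Nkx2-2 window lies within the span of its gene, and those of Neurod1 and Fev overlap the ends of theirs.
Neurog3, chr10:62132840-62133089, plus strand: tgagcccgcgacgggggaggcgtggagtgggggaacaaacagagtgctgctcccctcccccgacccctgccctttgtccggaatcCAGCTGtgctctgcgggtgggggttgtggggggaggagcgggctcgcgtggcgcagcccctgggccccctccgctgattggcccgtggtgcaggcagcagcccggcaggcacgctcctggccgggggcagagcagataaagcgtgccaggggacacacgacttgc
Neurod1, chr2:79456637-79456886, minus strand: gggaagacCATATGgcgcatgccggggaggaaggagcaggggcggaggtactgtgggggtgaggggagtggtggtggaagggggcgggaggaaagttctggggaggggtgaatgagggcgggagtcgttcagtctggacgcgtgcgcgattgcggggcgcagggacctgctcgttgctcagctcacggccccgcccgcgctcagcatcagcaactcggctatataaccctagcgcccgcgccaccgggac
Nkx2-2, chr2:147186403-147186652, minus strand: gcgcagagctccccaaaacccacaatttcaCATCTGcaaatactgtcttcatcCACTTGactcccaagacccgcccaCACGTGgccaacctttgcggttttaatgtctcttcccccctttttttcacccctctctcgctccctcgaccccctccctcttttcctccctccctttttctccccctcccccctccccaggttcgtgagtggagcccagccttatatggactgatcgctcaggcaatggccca
Fev, chr1:74885409-74885658, minus strand: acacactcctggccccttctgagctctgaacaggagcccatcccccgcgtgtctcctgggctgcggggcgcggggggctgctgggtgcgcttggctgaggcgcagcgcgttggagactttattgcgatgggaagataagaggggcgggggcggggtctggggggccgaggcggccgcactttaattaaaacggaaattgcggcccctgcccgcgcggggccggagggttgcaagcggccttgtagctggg
The Neurog3 window held 1 E-box (CAGCTG, bases -165 to -160 from the start), the Neurod1 window 1 (CATATG, from -242) and the Nkx2-2 window 3 (CATCTG from -220, CACTTG from -197 and CACGTG from -173), while the Fev window held none. A start was matched for 7 of the 9 factors, in 8 windows, and the others were Insm1 and Pax4. Across 32851 RefSeq windows of the same length 66.2% held at least 1 CANNTG, a sequence that is its own reverse complement and so is read on both strands at once, and 14.4% held CAGATG or CATCTG. The match is a description of these letters and not of a bound site.

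**Figure D1:**
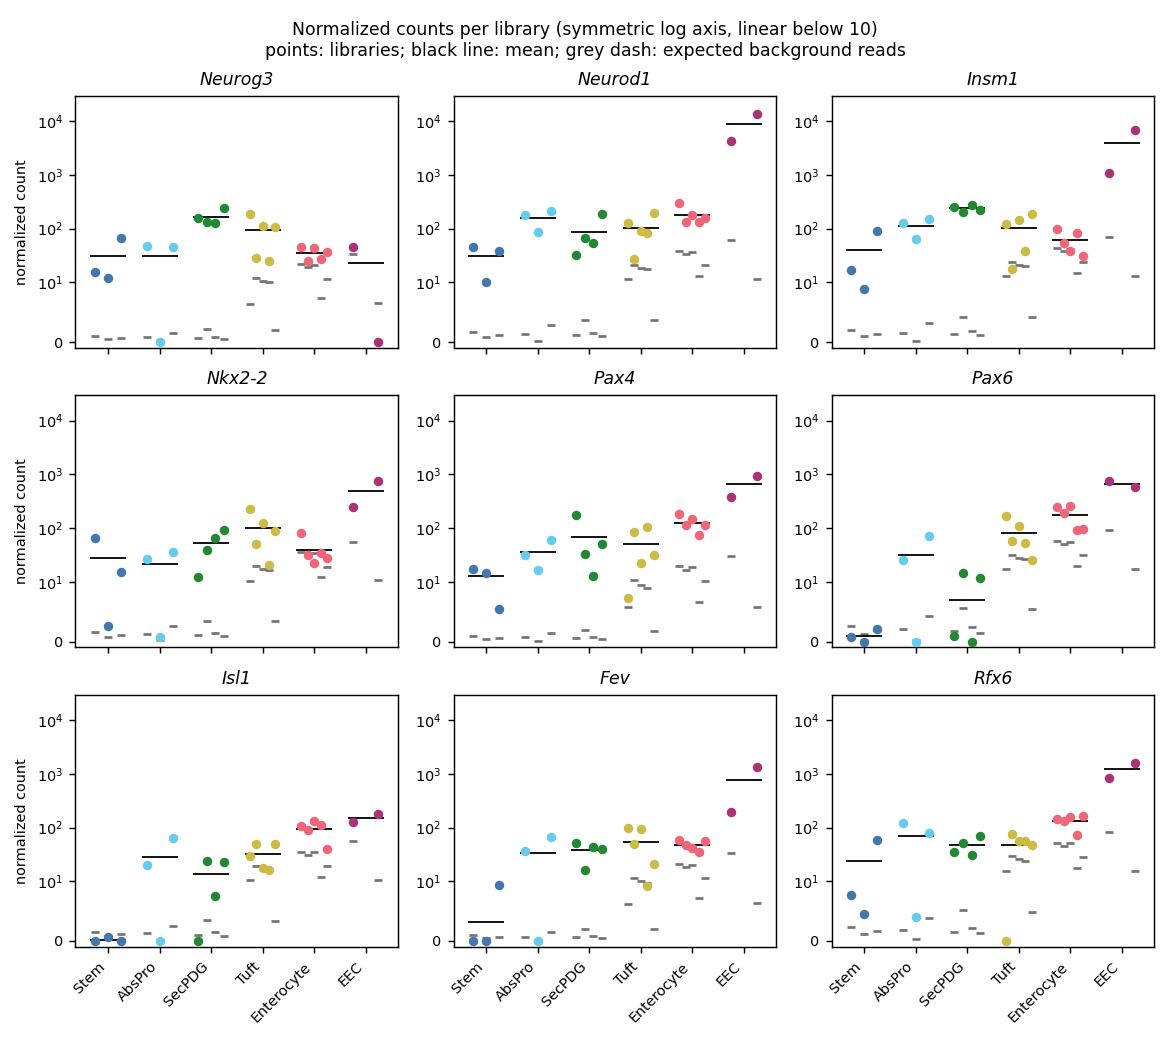
Normalized read counts of the 9 factors in each of the 22 libraries, on a log axis that is linear near 0, grouped by cell type, with a point for each library, a black line for the mean and a grey dash for the expected background reads. 8 of the 9 factors have their highest mean in EEC, and Neurog3 has its highest in SecPDG (166 normalized counts).

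Neurog3, the factor that starts the program, had its highest mean in the secretory progenitor gate. Its normalized counts were 159, 131, 129.7 and 247 in the 4 SecPDG libraries, against 15.3, 12.2 and 67.4 in Stem and 46.6, 0 and 45 in AbsPro. No SecPDG library overlapped with either, and the share of all genes that separate in this way was not counted. The Tuft libraries ranged from 25.3 to 186 with a median of 109.6, the Enterocyte libraries from 25.2 to 45.3, and the EEC libraries had 45.2 and 0. At the depth of EEC 2 a count of 0 allows up to 3 reads, or 3.64 normalized counts, and of the 45.2 in EEC 1, 76.2% was the background share. SecPDG exceeded Stem by 2.38 on the log2 scale (SE 0.60, adjusted p = 0.00482) and AbsPro by 2.44 (SE 0.63, adjusted p = 0.0078). Enterocyte was below SecPDG by a log2 difference of -2.24 (SE 0.58, adjusted p = 0.00128) and EEC by -3.17 (SE 0.99, adjusted p = 0.00711). Tuft overlapped with SecPDG, with a log2 difference of -0.84 (SE 0.47, adjusted p = 0.195), so the order of these types was not resolved. Between EEC and Stem, AbsPro, Tuft or Enterocyte Neurog3 passed no test, with log2 differences of -0.79 (SE 1.32), -0.74 (SE 1.35), -2.34 (SE 1.08) and -0.93 (SE 1.3), the first 2 of which turned positive with DESeq2 or with all libraries thinned to the smallest. All 4 calls were lost in the trended fit, with adjusted p of 0.257 for SecPDG against Stem, 0.333 for SecPDG against AbsPro, 0.0654 for Enterocyte against SecPDG and 0.113 for EEC against SecPDG. The call against AbsPro and both lower calls against SecPDG were lost with DESeq2 size factors. Leaving out 1 library ended the call against Stem (Stem 1, Stem 2 or SecPDG 4), that against AbsPro (any AbsPro library, SecPDG 1, SecPDG 3 or SecPDG 4) and that of EEC against SecPDG (EEC 2 or SecPDG 4).

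Neurod1, which follows Neurog3 and drives differentiation and hormone expression, was the most abundant of the 9. It had 4219.6 and 13397 normalized counts in EEC 1 and EEC 2. The other libraries were all at 301 or less: 45.1, 10.2 and 39.1 in Stem, 181, 85.4 and 217 in AbsPro, 32.1, 67.1, 53.1 and 187 in SecPDG, 27.8 to 192 in Tuft and 132 to 301 in Enterocyte. The EEC mean of 8808 ± 6489.5 (SD, n = 2) was 279.8 times that of Stem (31.5 ± 18.6, n = 3) and 48.6 times that of Enterocyte (181 ± 69.7, n = 5). The fitted log2 difference was 8.16 against Stem (SE 0.56, adjusted p = 2.38e-17) and 5.63 against Enterocyte (SE 0.39, adjusted p = 2.41e-16). The background share was 0.412% of the EEC mean and 15.9% of the Enterocyte mean.

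Insm1, a zinc finger repressor of early endocrine cells, was highest in EEC, and its SecPDG mean was 6.04% of the EEC mean. EEC had 1085 and 6891 normalized counts, more than any other library, and SecPDG came next with 254, 203, 281 and 226. Stem had 16.8, 8.96 and 92.3, AbsPro 126, 64.3 and 149, Tuft 17.7 to 186 and Enterocyte 30.5 to 96.5, so all 4 SecPDG libraries were above every library of these types. The share of all genes that separate in this way was not counted. In the edgeR fit SecPDG was not called above AbsPro (log2 difference 1.11, SE 0.52, adjusted p = 0.293). Nor was Tuft called below SecPDG (-1.18, SE 0.47, adjusted p = 0.0831). EEC exceeded Stem by 6.66 on the log2 scale (SE 0.57, adjusted p = 3.89e-14) and SecPDG by 4.05 (SE 0.43, adjusted p = 4.45e-11). SecPDG exceeded Stem by 2.61 (SE 0.60, adjusted p = 0.00189), a call lost without Stem 1 or Stem 2. Enterocyte was below SecPDG by a log2 difference of -2.01 (SE 0.54, adjusted p = 0.00187), a call lost with DESeq2 size factors, and 54% of the Enterocyte mean was the background share.

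Nkx2-2, a homeodomain factor of enteroendocrine and islet cells, had 248 and 743 normalized counts in EEC. The Tuft libraries came closest with 225, 50.5, 124, 20.7 and 87.8, of which the highest lay just under EEC 1. Means were 27.7 ± 33 in Stem (n = 3), 21.4 ± 18.5 in AbsPro (n = 3), 52.9 ± 35 in SecPDG (n = 4) and 39.1 ± 23.6 in Enterocyte (n = 5), and no pair among these types and Tuft passed the test. EEC exceeded Stem by 4.30 on the log2 scale (SE 0.65, adjusted p = 4.37e-07) and Tuft by 2.36 (SE 0.51, adjusted p = 0.000406). Without EEC 2 the calls against SecPDG, Tuft and Enterocyte were lost (log2 differences of 2.20, 1.3 and 2.71), and that against Tuft also with DESeq2. In EEC 1 the background share was 22.7% of the level.

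Pax4 and Pax6 are paired-domain factors that take part in choosing the hormone a cell makes. Pax4 had 372 and 928 normalized counts in EEC and 179.9, 115, 148, 75.3 and 112 in Enterocyte, with Stem at 17.6, 14.7 and 5.39. It differed by 5.74 between EEC and Stem (log2, SE 0.68, adjusted p = 1.02e-09) and by 2.43 between EEC and Enterocyte (SE 0.46, adjusted p = 0.000105), the latter lost without EEC 2 or with DESeq2. Pax6 was hardly read in the crypt base gates, with 0.765, 0 and 2.02 normalized counts in Stem and 0.945, 14.9, 0 and 11.8 in SecPDG. It had 765 and 572 in EEC, 247, 193, 261, 93.5 and 95.5 in Enterocyte, 25.1 to 165 in Tuft and 25.4, 0 and 70.3 in AbsPro. EEC was above all of them, but closest to Enterocyte, with a log2 difference of 1.89 (SE 0.43, adjusted p = 0.00161) against 9.31 for Stem (SE 0.98, adjusted p = 1.89e-11). The call against Enterocyte was lost without EEC 1, with library totals in place of the scaling factors and with DESeq2. The background share of Pax6 was 8.14% in EEC, 24.2% in Enterocyte and 27% in Tuft.

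Isl1, a LIM homeodomain factor of endocrine cells and neurons, was not separated between EEC and Enterocyte. It had 125 and 177 normalized counts in EEC and 107, 88.3, 132, 113 and 40.2 in Enterocyte, and these ranges overlapped. Only 1 read fell on it in the 3 Stem libraries together, so the ratio of EEC to Stem, 679.6, had a counting interval of 121 to 26966 (95%, counting error only, since reads without molecular tags are not independent molecules). The log2 difference between EEC and Stem was 8.77 (SE 1.55, adjusted p = 7.86e-06) and between EEC and Enterocyte 0.67 (SE 0.59, adjusted p = 0.527). A call also asked for a mean of 50 normalized counts over all 22 libraries, and the mean of Isl1 was 49.2, so that it was not called in any comparison. With a minimum mean over the compared types alone it was called against Stem, AbsPro and SecPDG. Its background share was 22.1% in EEC and 27.6% in Enterocyte.

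Rfx6, a winged-helix factor needed for hormone-producing cells of gut and pancreas, had 846 and 1596 normalized counts in EEC, 73 to 165 in Enterocyte and 7.65, 4.48 and 60 in Stem, with log2 differences of 5.66 against Stem (SE 0.57, adjusted p = 9.57e-12) and 3.21 against Enterocyte (SE 0.42, adjusted p = 4.43e-08). Fev, also called Pet1, is an ETS factor that controls the serotonin genes of neurons. It had 195 and 1321 normalized counts in EEC, and its other libraries were at 97.6 or less, with 0, 0 and 9.43 in Stem. EEC exceeded Stem by 7.89 on the log2 scale (SE 0.85, adjusted p = 4.97e-11) and Enterocyte by 4.06 (SE 0.53, adjusted p = 3.42e-08). Without EEC 2 these differences were 5.87 and 2.04, the mean of Fev over the remaining libraries was under the minimum for a call, and no call on it was left.

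**Figure D2:**
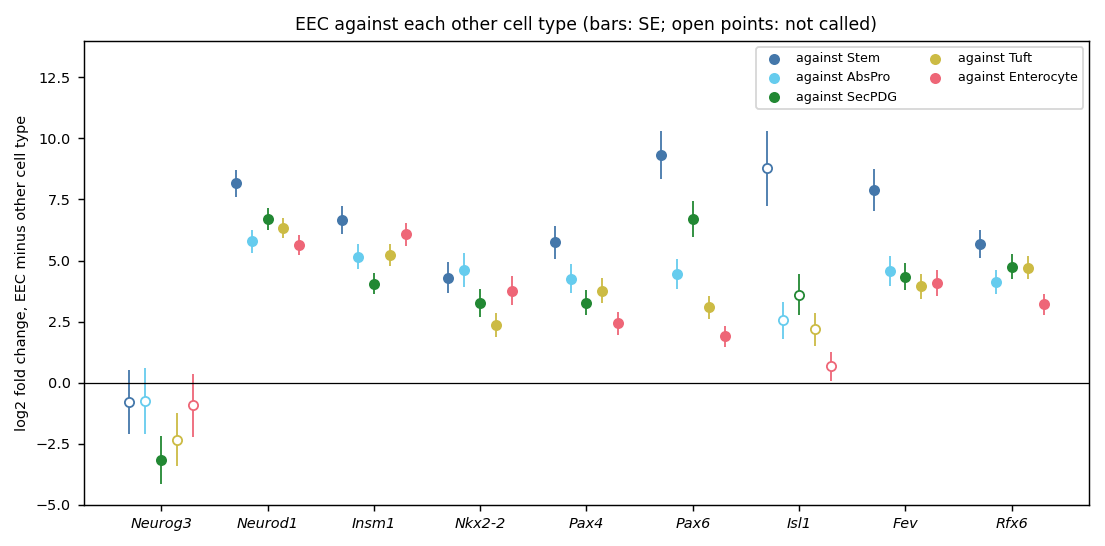
Log2 fold change of each factor between EEC and each of the 5 other cell types, with bars of 1 standard error from the edgeR fit of 22 libraries. Filled points were called and open points were not. 7 factors are called above 0 against every type, Isl1 lies above 0 without a call, and Neurog3 lies below 0 against all 5 types under the scaling used here, with a call against SecPDG alone.

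Counted over the 9 factors, 7 were called higher in EEC than in Stem, where a call meant a Benjamini-Hochberg adjusted p under 0.01 in edgeR's quasi-likelihood test over 22781 genes and the mean of 50. Of all genes tested 10.8% were called higher and 9.14% lower in that comparison. The same 7 were called higher against AbsPro (9.84% of all genes), SecPDG (11.2%), Tuft (4.73%) and Enterocyte (3.44%), and 1, Neurog3, was lower than in SecPDG (10.1% of all genes). The median log2 difference of the 9 was 6.66 against Stem, 4.45 against AbsPro, 4.05 against SecPDG, 3.77 against Tuft and 3.21 against Enterocyte. Over the 13188 genes with a mean of 50 the median was -0.30, -0.39, -0.31, -0.22 and 0.02, and with DESeq2 size factors the first of these became 0.31. The trended fit called 4 of the 9 higher against Tuft (Neurod1, Insm1, Pax4 and Rfx6, with 1.77% of all genes) and 2 against Enterocyte (Neurod1 and Insm1, with 1.73%). Without EEC 2, 4 were called against Enterocyte (Neurod1, Insm1, Pax6 and Rfx6).

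**Figure D3:**
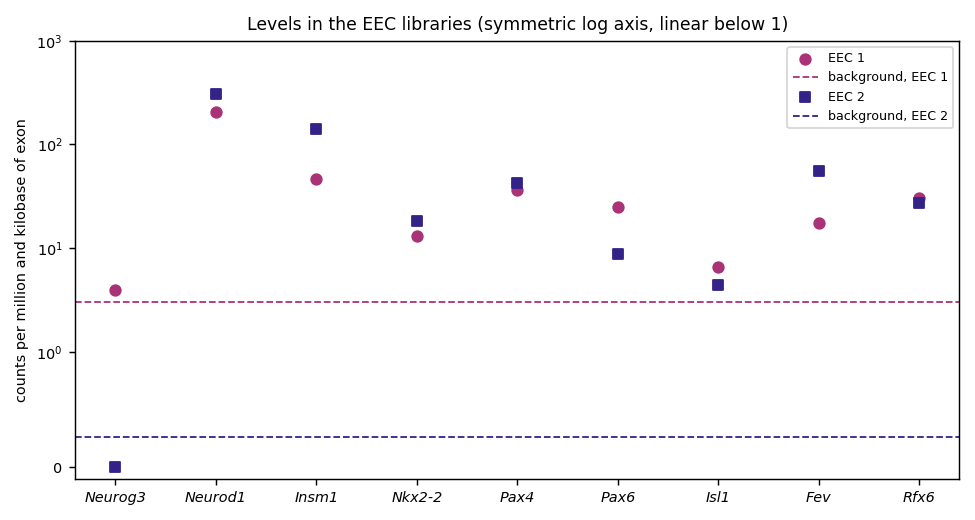
Level of each factor in EEC 1 and EEC 2 as CPM per kilobase of exon on a log axis, with the background level of each library as a line. Neurod1 is highest in both libraries (207 and 308), and Neurog3 is the lowest, at 3.94 in EEC 1 and 0 in EEC 2.

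Per kilobase of exon, the scale on which genes can be compared with each other, Neurod1 was at 207 CPM per kb in EEC 1 and 308 in EEC 2, which was 53.5% and 51% of the sum over the 9 factors. Insm1 followed with 47 and 139.5. Pax4 (36.5 and 42.5), Rfx6 (30.6 and 27) and Fev (17.6 and 55.7) came next, then Pax6 (25.1 and 8.76), Nkx2-2 (13.2 and 18.5) and Isl1 (6.65 and 4.42). The order of these middle genes was not the same in both libraries: Fev ranked 6 in EEC 1 and 3 in EEC 2, and Pax6 ranked 5 and 7. In CPM, EEC 2 had 3.17 times the Fev and 2.97 times the Insm1 of EEC 1, but 0.35 times the Pax6. Summed over the 9 factors the level was 388 and 604 CPM per kb in EEC, 36.9 ± 17.4 in Enterocyte (n = 5), 20.4 ± 6.18 in Tuft (n = 5), 19.6 ± 6.66 in SecPDG (n = 4), 13.6 ± 8.43 in AbsPro (n = 3) and 4.96 ± 3.12 in Stem (n = 3).

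Among the other 5 types fewer factors were called, and the called genes differed by comparison. Against Stem, SecPDG gave 2 higher calls of 9 (Neurog3 and Insm1, with 3.38% of all genes), and in the trended fit of edgeR 0 (2.41%), where 6 had an unadjusted p under 0.05. Absorptive progenitors gave 0 calls against Stem in edgeR (0.496% of all genes), with Neurod1 closest (2.38, SE 0.65, adjusted p = 0.0497), while 6 of 9 had an unadjusted p under 0.05 and DESeq2 called 3. Tuft gave 1, Pax6, at 6.22 (SE 1.34, adjusted p = 0.000391, 7.83% of all genes). Enterocytes gave 5: Pax6 at 7.41 (SE 1.11, adjusted p = 4.52e-07), Fev at 3.83 (SE 1.29, adjusted p = 0.00958), Pax4 at 3.31 (SE 0.76, adjusted p = 0.000352), Neurod1 at 2.53 (SE 0.62, adjusted p = 0.000739) and Rfx6 at 2.45 (SE 0.65, adjusted p = 0.0015). Of all genes 10.7% were called higher in that comparison. Isl1 could not be called against Stem, since its mean over all libraries (49.2) was under the minimum for a call. Its log2 difference from Stem was 8.10 in Enterocyte (SE 1.48, adjusted p = 1.64e-05) and 6.58 in Tuft (SE 1.95, adjusted p = 0.00891), with 1 read in Stem. Its adjusted p was 0.185 in AbsPro and 0.289 in SecPDG. Enterochromaffin markers moved with the factors between Enterocyte and Stem (5 of 6 called higher, median log2 difference 5.51). So did peptide hormone genes (4 of 9, median log2 difference 3.11), of which Gcg, Nts and Pyy had their highest mean in Enterocyte. Markers of tuft cells (5 of 7), goblet cells (5 of 8) and enterocytes (6 of 8) were also called higher. The same held for endothelium (4 of 4), immune cells (3 of 12), stroma (3 of 8) and enteric neurons and glia (1 of 10). All 6 stem cell markers were called lower. In Enterocyte the endothelial markers summed to 31.4 to 139.7 CPM, the immune ones to 36.5 to 169.9 and the stromal ones to 46.6 to 194. Their Stem sums are given with the EEC gate. The part of cells of any of these types, hormone cells among them, in the calls of the factors was not tested. The trended fit left 3 of the 5 factors called (Neurod1, Pax4 and Pax6, with 5.6% of all genes). Fev was also lost once the expected background reads were taken off. Its mean over all libraries reached the minimum for a call only with EEC 2 included (1321 normalized counts). The Fev means of the compared types were 48.1 in Enterocyte and 3.14 in Stem. Without Stem 2 only Pax4 and Pax6 were left, so the count rests on a library in which all 9 factors were at 14.7 normalized counts or less.

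Set against each other, AbsPro, SecPDG, Tuft and Enterocyte gave 6 calls in 54 tests (6 pairs of types for 9 factors). Neurog3 was higher in SecPDG than in AbsPro (2% of all genes) and lower in Enterocyte than in SecPDG, and Insm1 was lower in Enterocyte than in SecPDG (12.7% of all genes). Pax6 gave the other 3: it was higher in Enterocyte than in AbsPro (2.55, SE 0.60, adjusted p = 0.000876, 8.2% of all genes), higher in Enterocyte than in SecPDG (4.82, SE 0.80, adjusted p = 2.51e-06, 10.7%) and higher in Tuft than in SecPDG (3.63, SE 0.93, adjusted p = 0.00788, 3.01%). The last was lost once the expected background reads were taken off and without any 1 of the SecPDG libraries, and the first without AbsPro 1 or AbsPro 2. Neurod1, Nkx2-2, Pax4, Fev and Rfx6 passed in none of the 6 pairs, so that no order among these 4 types was resolved for them. Isl1 could not be called in any pair, since its mean over all libraries was under the minimum for a call. It was higher in Enterocyte than in SecPDG without overlap (2.94, SE 0.74, adjusted p = 0.00106), with an adjusted p of 0.0492 in the trended fit. In the other pairs its adjusted p was 0.0149 or more. The trended fit gave 2 calls in place of 6.

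**Figure D4:**
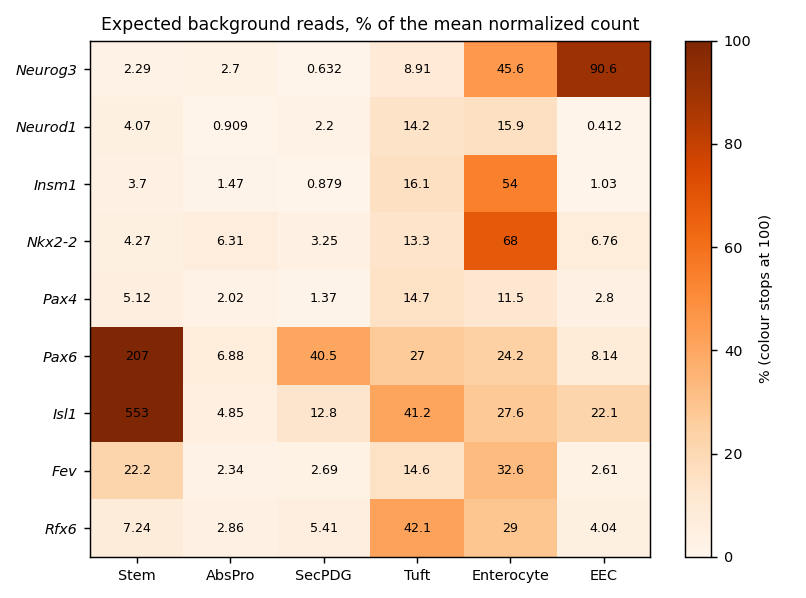
Background share of the mean level of each factor in each cell type, in percent, from reads on 1544 genes taken as background. Some of these genes may be transcribed in EEC or Tuft. The share is below 10% in EEC for all factors but Isl1 (22.1%) and Neurog3 (90.6%), and above 20% in Enterocyte for 7 factors.

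The background share followed the outer gates. It was 45.6% of the mean of Neurog3 in Enterocyte, 68% for Nkx2-2, 54% for Insm1 and 32.6% for Fev, but 11.5% for Pax4. In SecPDG it was under 6% for all factors but Pax6 (40.5%) and Isl1 (12.8%). Over the 20 libraries outside EEC, the log2 level of Pax6 followed that of the background genes with r = 0.87 and that of Isl1 with r = 0.74, while Insm1 had r = -0.23. These libraries share cell type and depth as well as background. With the expected background reads taken off, the same 7 factors were called higher in EEC than in each other type.

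Within the group, levels were compared over the 22 libraries as Pearson correlations of log2(normalized count + 1), which share cell type and depth. The 28 pairs without Neurog3 had a median r of 0.65 (0.34 to 0.90), and 0.50 with both EEC libraries left out. The 8 pairs with Neurog3 had a median of -0.02 (-0.31 to 0.21), and 0.26 without EEC.

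**Figure D5:**
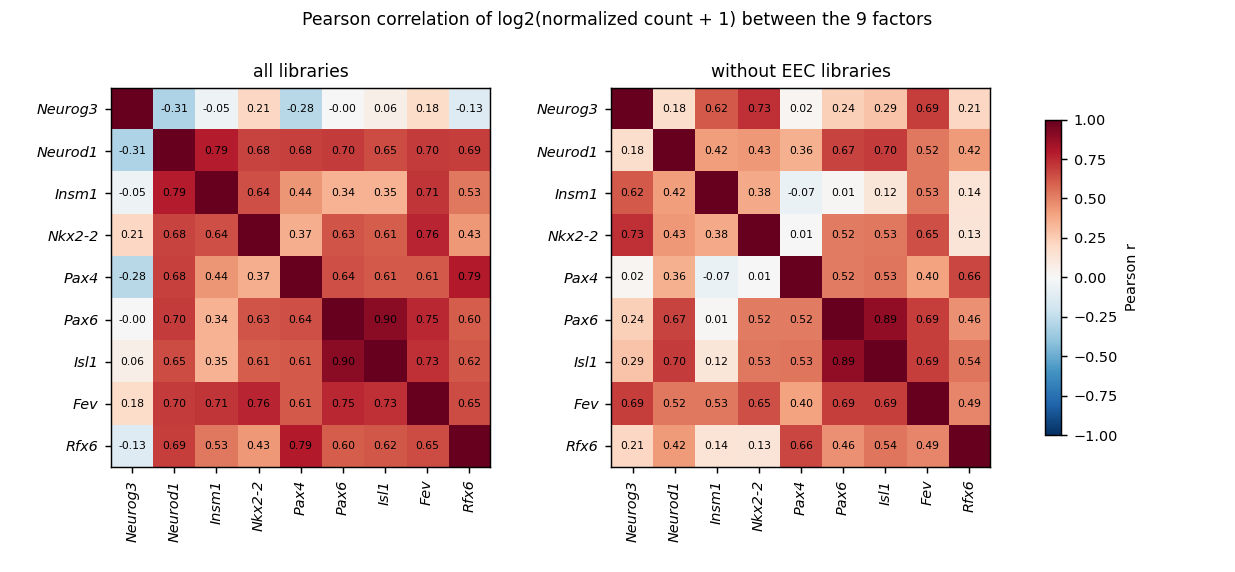
Pearson correlation between each pair of the 9 factors over 22 libraries, from log2(normalized count + 1), with all libraries on the left and without EEC on the right. With all libraries the 28 pairs without Neurog3 are all positive (0.34 to 0.90), and the pairs with Neurog3 lie between -0.31 and 0.21.

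For each factor, the 3 genes of most similar pattern were sought among genes with a mean of 50. This mean runs over all 22 libraries, so a gene high in EEC and low elsewhere could enter through EEC. Those of Neurod1 were Rimbp2 (r = 0.93), a synaptic scaffold, Chgb (r = 0.93), the granin of secretory granules, and Pcsk1n (r = 0.91), an inhibitor of prohormone convertase. Fev was nearest to Tmem220 (r = 0.88), Slc18a1 (r = 0.88), the transporter that loads serotonin into vesicles, and Runx1t1 (r = 0.88). Pax4 was nearest to Cdk5r2, Myt1 and Ets1 (r = 0.87 to 0.89), Insm1 to Atp6v1b2, Rab3gap2 and Eif4e3 (r = 0.83 to 0.86), Nkx2-2 to Pex5l, Gm7694 and Gramd1b (r = 0.83 to 0.85) and Rfx6 to Tnfrsf11b, Vwa5b2 and Dennd4a (r = 0.88 to 0.91). Neurog3 had Calcrl, Pla2g5 and Six5 (r = 0.87 to 0.89), each with a higher mean in SecPDG (211, 119.9 and 241 normalized counts) than in EEC (73.2, 40.7 and 84.4). Pax6 was nearest to Myoz3, Treml2 and Jph4 (r = 0.96 to 0.97) and Isl1 to Olfr78, Slc35d3 and Lrp11 (r = 0.93), of which Olfr78 belongs to a family used for the background. Of the 27 genes, 6 were also among the nearest 3 without the EEC libraries.

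Of 16 other transcription factors of enteroendocrine cells, 7 were called higher and 1 lower in EEC than in Stem, beside 10.8% and 9.14% of all genes. The median log2 difference of the 16 was 3.34. Lmx1a, which controls serotonin synthesis, had 1322 and 6067 normalized counts in EEC and a mean of 0.213 in Stem. Myt1 (2898 and 8658, against a Stem mean of 31.8), Runx1t1 (1023 and 2288, against 3.37) and Scrt1 (528 and 101, against 0.674) were also called, as were St18, Prox1 and Foxa1. Pdx1, known from islet and peptide hormone cells, was not called, at 25.3 and 0 normalized counts.

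Of 29 relatives of the 9 factors in the same protein families, 1 was called higher in EEC than in Stem, where 10.8% of all genes were: Rfx2 (721 and 1825 normalized counts, Stem mean 65.1, log2 difference 4.36, SE 0.49, adjusted p = 2.4e-10). Only 6 of the 29 reached the mean of 50, and the median log2 difference over the list was 4.36, also with the 6 genes at 0 reads in EEC or Stem set to the bound that 3 reads over the group allow. Some relatives were read in EEC 1 and hardly in EEC 2: Pax7 had 222 and 0, Pax2 291 and 0, and Neurod4 172 and 1.21 normalized counts. The background share of these EEC 1 levels was 58.8%, 33.5% and 43.5%. Others were higher in EEC 2, such as Rfx7 with 356 and 2608 and Rfx5 with 213 and 576. The count rose to 7 with DESeq2 size factors and to 12 without the minimum mean.

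Of 8 genes listed for the secretory fate, 5 were called higher in SecPDG against Stem (3.38% of all genes), and 1, Hes1, the Notch target that represses Neurog3, was lower by a log2 difference of -1.37 (SE 0.33, adjusted p = 0.00279). Atoh1, which opens the secretory fate, had a mean of 7054 normalized counts in SecPDG and 211 in Stem, and the Notch ligand Dll1 2733 and 209. In EEC Atoh1 had 633 and 23.1. Between EEC and Stem Gfi1b was called higher (128 and 14.6, with 0 reads in Stem) and Hes1 lower by a log2 difference of -3.90 (SE 0.56, adjusted p = 1.86e-07).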

How the data were processed

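RNA from 22 libraries of 6 sorted cell types was examined. Per the labels and the study's methods, the authors aligned reads with STAR 2.5.2a to the UCSC mm10 genome and counted them per gene with HTSeq 0.6.1p1 without strand. The deposited values are raw counts for 24421 genes, and 5 entries per file that name no gene were kept out of library sizes and tests. The comparisons of alternative splicing and polyadenylation that the authors also deposited were not used. The gene model of GENCODE was used for exon lengths and overlaps.

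Counts were scaled with TMM factors and fitted in 1 quasi-likelihood model of cell type over all 22 libraries (edgeR 4.0.16 in R 4.3.3, with its bias-adjusted fit), after a filter on low counts that left 22781 genes. Normalized counts are counts at the mean effective library size. A call required both an adjusted p (Benjamini-Hochberg, over the 22781 genes) under 0.01 and an average over all libraries of 50 normalized counts or more. The comparisons were EEC with each other type, each type with Stem, and AbsPro, SecPDG, Tuft and Enterocyte with each other. Alternatives were DESeq2 1.42.0, other scaling factors, filters and thresholds, thinned counts, a replicate block, fits of 2 types alone and each library left out. The trended dispersion fit and the removal of expected background reads were added after the data were seen. The bias-adjusted fit was kept since earlier processing of these files had used it. The model fit was tested on simulated counts. Promoters came from RefSeq.

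The 9 genes and all gene lists were chosen with earlier results of these data known. Named genes were the 9 factors in every comparison, the 3 genes of highest Pearson correlation with each (log2 of the normalized count plus 1), and, of the other lists, genes called between EEC and Stem, with up to 4 in values. List genes that were not called, and those given for the SecPDG and Tuft comparisons, were named after their values were seen. Single values of some genes of the lists are not reported here. p-values measure the spread between libraries from separate mice or pools of mice.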

Additional observations from a re-analysis of the deposited data

Results flagged for a closer look

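In 27 groups of 4 or 5 libraries (9 factors in SecPDG, Tuft and Enterocyte), 2 held a library far from the others by Dixon's criterion, which chance meets in about 1 of 20 groups. Both concern Enterocyte 1. Its Neurod1 level was 301 normalized counts, and the next of the 5 enterocyte libraries had 180.2. Its Nkx2-2 level was 80.4 normalized counts, and the next library had 34.2. Both genes share exonic bases with a neighbour, Cerkl and Nkx2-2os, and the part of these in the values was not tested.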

How the results depend on the processing

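The 7 calls against Stem, AbsPro and SecPDG were within 1.5 times their count in every alternative run. The count against Tuft was 4 and that against Enterocyte 2 in the trended dispersion fit. Against Stem, AbsPro had 3 calls with DESeq2 and 1 at an adjusted p under 0.05, SecPDG 1 with library totals, 0 with thinned counts and 0 in the trended fit, Enterocyte 3 in the trended fit, and Tuft 4 with DESeq2, 4 at an adjusted p under 0.05, 2 each with DESeq2 size factors, upper quartile factors, no minimum mean and the replicate block, and 0 with background reads per coding kilobase taken off. Family relatives called in EEC numbered 5 with DESeq2, 7 with its size factors, 4 with library totals, 5 with upper quartile factors, 12 without the minimum mean, 3 with that mean over both types and 2 with thinned counts. The pairs of the other types gave 2 calls in the trended fit. Of the 27 nearest genes, 6 were kept with Spearman correlation, 10 with a pseudocount of 10 and 6 without EEC. The causes were not tested.

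Leaving out 1 library gave 6 to 8 calls in EEC against Stem and against AbsPro, 5 to 8 against SecPDG, 5 to 7 against Tuft and 4 to 7 against Enterocyte (4 without EEC 2). Against Stem it gave 0 to 1 for AbsPro, 0 to 2 for SecPDG, 1 to 3 for Tuft and 2 to 6 for Enterocyte. It gave 3 to 7 for the pairs (3 without AbsPro 1), 1 to 2 for the relatives and 6 to 7 for the other enteroendocrine factors. A library left alone in its type was taken to vary like the rest.

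The sign of Neurog3 turned in EEC against Stem with DESeq2 (0.72), thinned counts (0.15), without Stem 3 (0.28) and without EEC 2 (0.50), against AbsPro with DESeq2 (0.81), thinned counts (0.41) and without EEC 2 (0.55), and against Enterocyte without EEC 2 (0.36). Without EEC 1 only a library at 0 is left, and the fitted values (-8.06, -8.02 and -8.03) are no bounds. Over all fold changes and alternatives, 2005 kept direction and side of the threshold, 122 lost the threshold, 48 gained it and 8 turned.

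Replicate numbers did not pair the libraries: those of the same number correlated in their deviations with a median of 0.00138 (44 pairs, 16 over 0.1) and those of other numbers with 0.0198 (154 pairs, 48 over 0.1). With the replicate block Pax6 against Enterocyte and Neurog3 against SecPDG lost their calls in EEC, and Fev gained 1 in Tuft against Stem (2 in place of 1).

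EEC has 2 libraries, of which EEC 1 has the fewest reads on genes and the most background. The level of Neurog3 in EEC 1 was mostly background share. EEC 2, with 13132315 reads on genes, had 0 reads on it, where 3 reads would be 3.64 normalized counts. The cause of the low level was not tested.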

Other observations

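Tuft cells, like other types, carried some factors of the wider enteroendocrine list. Of the 16, 5 were called higher and 1 lower in Tuft than in Stem, where 7.83% of all genes were called higher. More were called in Enterocyte against Stem, 8 higher and 2 lower (10.7% of all genes higher). In SecPDG against Stem 3 were higher and 1 lower (3.38% of all genes higher). St18, a zinc finger relative of Myt1, had a mean of 2197 normalized counts in Tuft, 131 in Enterocyte and 949 and 2194 in the EEC libraries. Prox1 had 661 in Tuft, 206 in SecPDG and 602 and 1207 in EEC. The somatostatin gene Sst had 255 in Tuft and 385 and 511 in EEC.

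The peptide hormone genes Nts and Pyy, like Gcg, had their highest mean in Enterocyte. Nts had a mean of 1225 normalized counts in Enterocyte and 3.62 and 155 in EEC, and Pyy had 558 in Enterocyte, 421 in AbsPro and 32.5 and 88.6 in EEC. The Enterocyte gate takes cells without Cd24 and the EEC gate cells with it. Whether this bears on the levels of these genes was not tested.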
